A study of Rattus norvegicus with 3 samples.

Results

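The genes described here are those of myelin, the layered membrane that oligodendrocytes wrap around central axons, and of the oligodendrocytes that make it. They were chosen by name, as 34 gene symbols looked up in the authors' table of group values, and 33 of the 34 have an entry among the 12771 entries of that table. ENPP2, the gene of autotaxin, an enzyme that makes lysophosphatidic acid, is the member without an entry. The RNA came from spinal cord of female Sprague Dawley rats, 3 months old, in which a laminectomy at T9 was either all that was done (No-SCI) or was followed by a moderate to severe contusion of the cord (SCI). Tissue just rostral to the injury site was taken 24 h later, digested in the cold with a protease, and spun to pellet the cells. The supernatant, an acellular fraction meant to be enriched for axons, was sequenced as total RNA depleted of ribosomal RNA. The labels used here list 2 No-SCI libraries and 1 SCI library, fewer for SCI than the methods describe. The table gives 1 FPKM value for each entry and group and none for a single library. No spread between animals, interval or test can therefore be given, and the number of reads behind each value is unknown. FPKM stands for sequenced fragments relative to the length of the transcript and to the reads of the library, here with upper quartile normalization. No value lies below 1, and whether a constant of 1 was added to all of them is not given, which bears most on the ratios of low values. Every level is therefore an authors' group value, and every log2 ratio divides the SCI by the No-SCI value, with no pseudocount.

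Compact myelin is held together by basic proteins and proteolipids between its membrane layers, while loops that still hold cytoplasm carry enzymes and a cytoskeleton. Its messages are unusual in that some are carried out along the oligodendrocyte's processes and translated at the sheath, next to the axon. Oligodendrocytes arise from precursors marked by PDGFRA and CSPG4, pass through a committed stage marked by GPR17, and then switch on myelin genes under SOX10 and MYRF.

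Nearly the whole set was lower after SCI. Of the 33 genes, 28 had a lower value in SCI than in No-SCI, and 21 were at least 2-fold lower, which is 63.6% of them. Among all 12771 entries 56.3% were lower and 12.1% were at least 2-fold lower. CRYAB and PTGDS, 2 of the 33, were at least 2-fold higher, against 7.96% of all entries, and the other 10 lay within 2-fold. With the line at 1.5-fold, 26 were lower and 2 higher, against 26.3% and 16.9% of all entries. The median log2 ratio of the genes was −1.10, that of all entries was −0.12, and 27 of the 33 genes lay below the latter. SIRT2, with a log2 ratio of −1.02, and BCAS1, with −0.98, stood just inside and just outside the 2-fold line. With the median of all entries centred at 0, 15 members were at least 2-fold lower and 2 higher, against 9.59% and 9.55% of all entries. The 6 that then lay within 2-fold were MOG, PLEKHH1, EVI2A, GAMT, PLEKHB1 and SIRT2, with log2 ratios between −0.996 and −0.91. In a supernatant of bulk tissue, fewer oligodendrocytes and less RNA from each of them cannot be told apart.

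**Figure D1:**
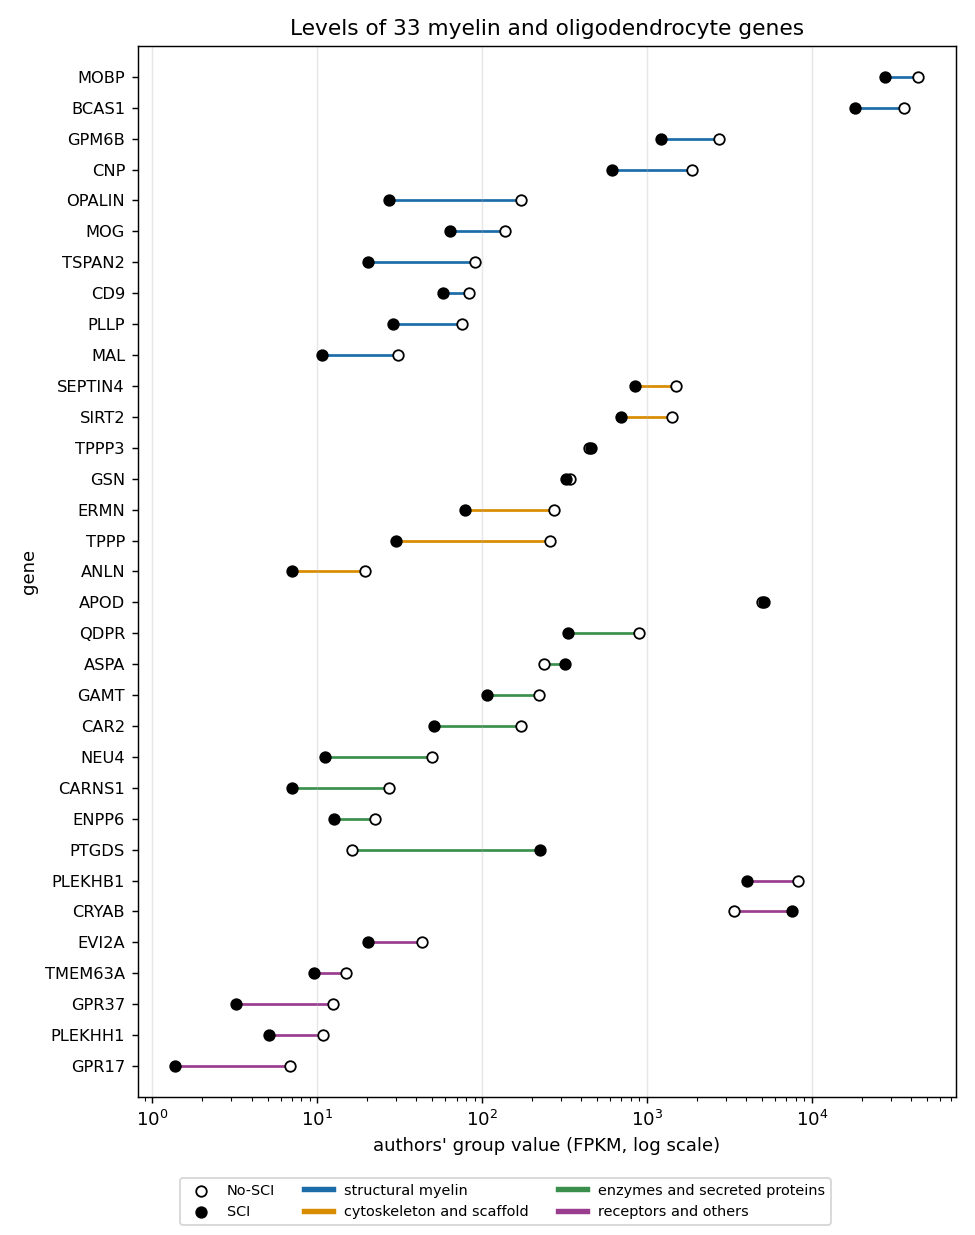
Authors' group values in FPKM on a log axis, No-SCI as open and SCI as filled circles, for the 33 genes with an entry, ordered within each role by their No-SCI value. MOBP and BCAS1 stand far to the right of all others in both groups, and PTGDS and CRYAB are the genes whose SCI value lies at least 2-fold to the right.

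Messages of the genes taken as structural for myelin were lower without exception. All 10 were lower after SCI, against 56.3% of all entries, and 7 of them at least 2-fold, against 12.1%. Their median log2 ratio was −1.28, with a range from −2.65 to −0.53. MOBP, the myelin-associated oligodendrocytic basic protein of compact myelin, had 44200 FPKM in No-SCI and 27648 FPKM in SCI. BCAS1, a cytoplasmic protein that marks oligodendrocytes as they begin to myelinate, had 36068 FPKM in No-SCI and 18311 FPKM in SCI. Among all entries, MOBP ranked 1 before and 2 after the injury, and BCAS1 ranked 2 and 5. Their log2 ratios, −0.68 and −0.98, were among the smallest of the structural genes, so the most abundant messages were not the ones with the largest relative difference.

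OPALIN, a transmembrane glycoprotein of oligodendrocytes, had the lowest ratio of the structural group, with 172 FPKM in No-SCI and 27.4 FPKM in SCI, a log2 ratio of −2.65. Only 42 of the 12771 entries had a lower ratio. TSPAN2, a tetraspanin of the oligodendrocyte surface, was at 90.5 FPKM in No-SCI and 20.2 FPKM in SCI (log2 ratio −2.16). CNP, the cyclic nucleotide phosphodiesterase that keeps cytoplasmic channels of myelin open, was at 1887 FPKM and 615 FPKM (log2 ratio −1.62). MAL and PLLP are small membrane proteins of myelin lipid rafts that share a MARVEL domain, and their ratios were close. MAL had 30.9 FPKM in No-SCI and 10.7 FPKM in SCI, and PLLP 75.8 and 28.8 FPKM, which gives log2 ratios of −1.53 and −1.39. GPM6B, a proteolipid that neurons and astrocytes also make, was the third most abundant of the group with 2722 FPKM in No-SCI and 1208 FPKM in SCI (log2 ratio −1.17). MOG, the glycoprotein on the outermost face of the sheath, had 138 FPKM in No-SCI and 63.9 FPKM in SCI (log2 ratio −1.11). CD9, a tetraspanin that is also found on vessels and many other cells, had the smallest difference of the 10, with 83.4 and 57.7 FPKM (log2 ratio −0.53).

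Promoter sequences of 4 structural genes are shown because they hold letters that the oligodendrocyte regulators are known to bind. All structural genes had lower values, so this choice says nothing about a link between letters and values, which was not tested. The stretches lie upstream of the gene's start, are written in the direction of transcription, and come from RefSeq on GRCr8, another build than the rn6 used for the values. CNP is at chr10:86011254-86011403 on the plus strand, OPALIN at chr1:249858191-249858290 on the minus strand, MAL at chr3:135341514-135341573 on the minus strand and MOBP at chr8:128746982-128747051 on the plus strand. Capitals mark the letters searched for on either strand, which are CTGGCAC and CTGGTAC for MYRF and AACAAAG and AACAATG for SOX factors.

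CNP: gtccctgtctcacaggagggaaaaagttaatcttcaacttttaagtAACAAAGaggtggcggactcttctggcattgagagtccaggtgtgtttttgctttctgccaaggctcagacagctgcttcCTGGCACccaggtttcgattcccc
OPALIN: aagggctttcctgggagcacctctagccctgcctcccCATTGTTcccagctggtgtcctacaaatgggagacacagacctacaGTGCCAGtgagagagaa
MAL: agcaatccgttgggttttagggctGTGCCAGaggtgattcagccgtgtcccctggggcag
MOBP: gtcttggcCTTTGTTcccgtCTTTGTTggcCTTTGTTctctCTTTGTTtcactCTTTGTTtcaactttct

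CNP and OPALIN each held both kinds of letters, MAL the MYRF letters, and MOBP 5 matches to the SOX letters within 70 bases, all in the reverse orientation. Promoter windows of 300 bases were found for 25 of the 34 genes, and BCAS1, MOG, ERMN, CRYAB, ENPP2, GPM6B, TPPP3, CAR2 and EVI2A had none in the table used. MYRF letters were in the windows of 4 of the 25 genes (16%; CNP, OPALIN, MAL and ENPP6) and in 6.78% of all 33469 windows. SOX letters were in those of 5 of the 25 (20%; CNP, OPALIN, MOBP, ASPA and APOD) and in 9.70% of all windows. The genes with SOX letters included ones with higher as well as lower values after SCI, since ASPA and APOD were among them. The structural genes TSPAN2, PLLP and CD9 had windows with neither kind of letters and were also lower after SCI.

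The cytoskeletal and scaffold genes of the sheath ranged from the lowest ratio of all members to nearly equal values. Of 7 genes 6 were lower after SCI, against 56.3% of all entries, and 4 at least 2-fold, against 12.1%. Their median log2 ratio was −1.02. TPPP, which nucleates microtubules in oligodendrocyte processes, had the lowest ratio of the 33 genes, with 258 FPKM in No-SCI and 30.1 FPKM in SCI, a log2 ratio of −3.10 or 8.56-fold lower. There were 18 entries in the whole table with a lower ratio. Its paralogue TPPP3, which is also known from meningeal and perivascular cells, was at 445 FPKM in No-SCI and 458 FPKM in SCI (log2 ratio 0.042). TPPP3 was thus 1.72 times as abundant as TPPP in No-SCI and 15.2 times in SCI. The tetraspanins showed a smaller gap of the same kind, since the log2 ratio of TSPAN2 was 1.63 below that of CD9. ERMN, an actin-binding protein of the outer tongue of myelin, was at 271 FPKM and 79.03 FPKM (log2 ratio −1.78). ANLN and SEPTIN4 belong to the septin scaffold that stabilizes mature myelin, and their ratios differed, with −1.49 for ANLN (19.6 and 6.997 FPKM) and −0.82 for SEPTIN4 (1490 and 843 FPKM). ANLN is also a cell division gene. SIRT2, a tubulin deacetylase of the sheath, had 1411 and 695 FPKM (log2 ratio −1.02). GSN, gelsolin, an actin-severing protein of many cell types, had 343 and 321 FPKM, a log2 ratio of −0.094 whose sign turned to 0.023 when the median of all entries was centred at 0.

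The enzymes and secreted proteins had the widest range, with log2 ratios from −2.16 to 3.79 over the 9 genes with an entry. Of these, 5 were at least 2-fold lower, against 12.1% of all entries, and 1 at least 2-fold higher, against 7.96%. NEU4, a sialidase of oligodendrocytes, had 49.9 FPKM in No-SCI and 11.1 FPKM in SCI (log2 ratio −2.16). CARNS1, which makes carnosine, had 27.4 and 7.08 FPKM (log2 ratio −1.95). CAR2, the carbonic anhydrase of oligodendrocytes, had 173 and 51.4 FPKM (log2 ratio −1.75). QDPR, which regenerates the cofactor tetrahydrobiopterin, had 891 and 331 FPKM (log2 ratio −1.43), and GAMT, which makes creatine, had 223 and 107 FPKM (log2 ratio −1.06). ENPP6, a choline phosphodiesterase of newly forming oligodendrocytes, lay within 2-fold at 22.5 and 12.6 FPKM (log2 ratio −0.84). These metabolic genes were thus lower over a wide span of levels.

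ASPA, the enzyme that splits the N-acetylaspartate supplied by neurons, had a higher value after SCI, unlike most of the enzymes, with 238 FPKM in No-SCI and 319 FPKM in SCI (log2 ratio 0.42), and its rank moved from 860 to 644. APOD, apolipoprotein D, ranked 20 and 19 with 4973 and 5159 FPKM (log2 ratio 0.053). PTGDS, a prostaglandin D synthase made by oligodendrocytes and by cells of the arachnoid, had 16.2 FPKM in No-SCI and 224 FPKM in SCI, a log2 ratio of 3.79 or 13.8-fold higher. Only 22 of all entries had a larger ratio.

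Among the receptors and remaining genes, 5 of 7 were at least 2-fold lower, against 12.1% of all entries. CRYAB, 1 of the 7, was at least 2-fold higher, against 7.96% of all entries. The 5 lower ones were GPR17, GPR37, PLEKHB1, PLEKHH1 and EVI2A. With median centring or at the same upper quartile, GPR17 and GPR37 were the 2 that stayed at least 2-fold lower. With median centring, 9.59% of all entries were at least 2-fold lower. GPR17, the receptor of the committed precursor, had 6.84 FPKM in No-SCI and 1.37 FPKM in SCI (log2 ratio −2.32). Its SCI value is near 1, the lowest value in the table, and the ratio ran from −3.98 with 1 subtracted from every value to −1.73 with a pseudocount of 1. GPR37, a receptor that restrains oligodendrocyte differentiation, had 12.5 and 3.20 FPKM (log2 ratio −1.97). PLEKHB1, a membrane-bound pleckstrin homology protein, ranked 9 in No-SCI and 24 in SCI with 8279 and 4059 FPKM (log2 ratio −1.03). PLEKHH1, with 10.9 and 5.09 FPKM, and EVI2A, with 43.4 and 20.3 FPKM, had log2 ratios of −1.10 each. TMEM63A, a mechanically gated ion channel, had 14.9 and 9.601 FPKM (log2 ratio −0.63). CRYAB, the small heat shock protein alpha B crystallin, had 3394 FPKM in No-SCI and 7532 FPKM in SCI, which is 2.22-fold higher (log2 ratio 1.15), and it moved from rank 34 to rank 12.

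**Figure D2:**
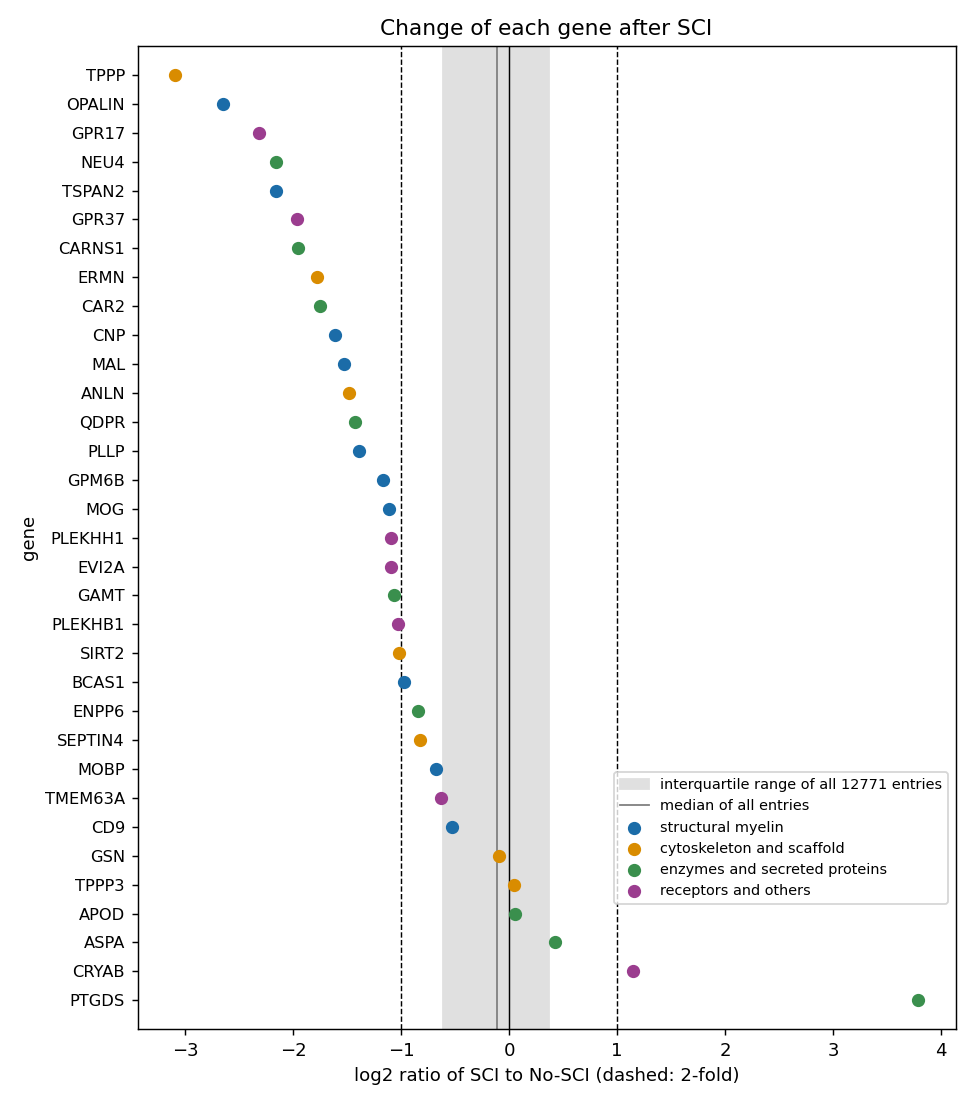
Log2 ratio of SCI to No-SCI for each of the 33 genes, coloured by role, with dashed lines at a 2-fold difference and the interquartile range of all 12771 entries shaded. The ratios run from −3.10 for TPPP to 3.79 for PTGDS, and 21 genes lie on or left of the lower 2-fold line.

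The median log2 ratio was −1.28 for the 10 structural genes and −1.06 for the other 23, a difference of −0.22. At least 2-fold lower were 7 of the 10 (70%) and 14 of the 23 (60.9%). Of the other 23, 16 lay inside the range of the structural genes, 1 (TPPP) below it and 6 above it. These 6 were GSN, TPPP3, APOD, ASPA, CRYAB and PTGDS. The upper end of the structural range was the log2 ratio of CD9, −0.53. Genes are not replicates of a condition, and the difference of the medians depended on where the line was drawn. It was −0.40 with 6 narrowly defined structural genes and −0.092 when the 7 cytoskeletal genes were counted as structural. Between means it was −0.51, and without the members also known from meninges or vessels it was −0.13.

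Of those 6 genes, 5 belong to 6 members with an entry that are also known from meninges or vessels (APOD, PTGDS, GSN, TPPP3, CRYAB and CD9). These 6 were put together with results of these data known, so their values are a description of that choice. The 6 had a median of 0.047 on the log2 scale, against −1.39 for the remaining 27 members. GPM6B and ANLN, which cells other than oligodendrocytes also make, are not among the 6 and were at least 2-fold lower. Of the 6, PTGDS and CRYAB were at least 2-fold higher, and the other 4 lay within 2-fold. Most markers of meningeal fibroblasts were higher after SCI. In that list 11 of 13 genes with an entry were at least 2-fold higher after SCI, against 7.96% of all entries. The 13 genes summed to 108 FPKM in No-SCI and 794 FPKM in SCI. SLC13A3 was at least 2-fold lower, with 8.95 and 2.47 FPKM (log2 ratio −1.86), and FMOD had 2.69 and 1.93 FPKM. IGFBP2, CRABP2 and DCN were the most abundant genes of the list in No-SCI with 25.2, 17.3 and 15.1 FPKM, and had 60.3, 382 and 156 FPKM in SCI. ALDH1A2 had 4.40 and 61.1 FPKM, and SLC47A1, SLC22A6 and LAMA1 have no entry. The part of meningeal cells in the values of the 6 members was not tested.

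The abundance of the whole set rested on few genes. The 33 genes held 8.62% of the summed FPKM of all entries in No-SCI and 5.62% in SCI. MOBP alone held 3.53% in No-SCI and 2.28% in SCI, and BCAS1 2.88% and 1.51%. MOBP and BCAS1 together made up 74.3% of the members' sum in No-SCI and 67.3% in SCI. Members outside the structural set held 1.80% and 1.67%. Among them CRYAB had 3394 FPKM in No-SCI and 7532 FPKM in SCI, and PLEKHB1 had 8279 and 4059 FPKM. PTGDS, APOD, ASPA and TPPP3 were higher by much smaller amounts of FPKM than CRYAB, and the remaining ones were lower. By rank, which needs no scaling between groups, 29 members stood lower in SCI than in No-SCI and 4 higher, and their median rank was 1197 without and 2675 with the injury.

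**Figure D3:**
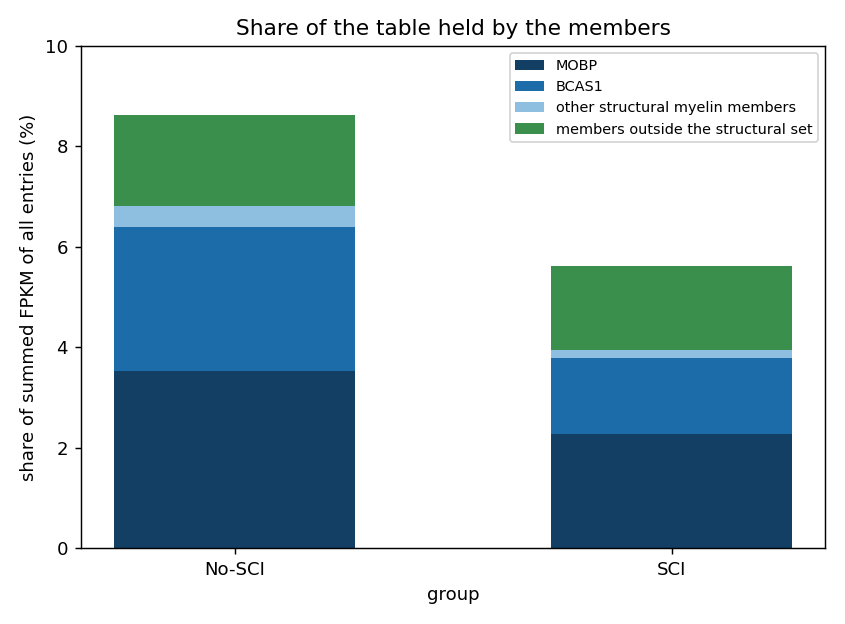
Share of the summed FPKM of all entries, in percent, held by MOBP, BCAS1, the other structural myelin members and the members outside the structural set in No-SCI and SCI. The whole bar reaches 8.62% without and 5.62% with the injury. The segment outside the structural set, 1.80% and 1.67%, is nearly as tall in both.

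Lower values were seen at every level of abundance. Of the 9 members with at least 1000 FPKM in No-SCI, 4 were at least 2-fold lower, with a median log2 ratio of −0.98. Of the 10 between 100 and 1000 FPKM, 7 were, with a median of −1.27, and of the 14 under 100 FPKM, 10 were, with a median of −1.44. Among all entries in these 3 ranges, 12.7%, 12.4% and 11.98% were at least 2-fold lower. Spearman's rho between the No-SCI level and the log2 ratio was 0.32 across the 33 genes, given as a description, since genes share their libraries and the level also enters the ratio.

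Further oligodendrocyte genes that are not members were mostly lower too. Of a list of 32, 30 have an entry, and their median log2 ratio was −0.95. At least 2-fold lower were 14, against 12.1% of all entries, and 1 was at least 2-fold higher, against 7.96%. MBP, the basic protein of compact myelin, and MYT1 have no entry. MAG, an adhesion protein of the inner layer, TF, the iron carrier transferrin, and UGT8, which makes galactosylceramide, had log2 ratios of −1.64, −2.00 and −2.36. Further genes at least 2-fold lower were ZFP488, GJC3, NKX2-2, OMG, RFFL, SOX10, GJB1, PRR5L, TMEM125 and ST18, with log2 ratios between −2.61 and −1.06.

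Regulators of the lineage did not share 1 pattern. SOX10 had 29.5 FPKM in No-SCI and 11.6 FPKM in SCI (log2 ratio −1.35), and MYRF 53.2 and 28.2 FPKM (−0.92). Lower as well were ZFP488 with 11.5 and 1.88 FPKM (−2.61), NKX2-2 with 18.6 and 4.66 FPKM (−2.00) and ST18 with 7.18 and 3.45 FPKM (−1.06). OLIG1 had 49.1 and 52.5 FPKM (0.095) and OLIG2 4.69 and 4.89 FPKM (0.059). NKX6-2, which acts late in myelination, was the gene at least 2-fold higher, with 31.2 and 68.3 FPKM (log2 ratio 1.13). CLDN11, the claudin of myelin tight junctions, had 24.5 and 16.7 FPKM (log2 ratio −0.55). PDGFRA, a precursor marker that fibroblasts also carry, had 13.0 and 21.1 FPKM (log2 ratio 0.70). CSPG4 was near the lowest value in both groups, with 1.63 and 1.60 FPKM, and its log2 ratio of −0.025 is smaller than the shift of 0.12 that median centring brings. Of the members that mark newly forming oligodendrocytes, GPR17 and NEU4 were at least 2-fold lower, and BCAS1 and ENPP6 were within 2-fold.

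Peripheral myelin genes were mostly higher after SCI, but several had low values in No-SCI. Of 13 Schwann cell genes 10 have an entry, and their median log2 ratio was 0.60. None was at least 2-fold lower, against 12.1% of all entries. At least 2-fold higher were 3, PRX and NCMAP among them, against 7.96%. NCMAP, DHH, CLDN19 and PRX, at 1, 1.17, 1.80 and 1.96 FPKM in No-SCI, could not be 2-fold lower, since no value lies below 1. The count of lower genes therefore cannot decide whether this list differed from central myelin. PRX, a scaffold protein of the Schwann cell, had 1.96 FPKM in No-SCI and 7.55 FPKM in SCI. PMP2 had 63.9 and 63.8 FPKM and PMP22 56.6 and 85.9 FPKM, and DRP2, a protein that anchors the Schwann cell to its basal lamina, had 29.4 and 16.3 FPKM. NCMAP is listed at 1, the lowest value, in No-SCI and had 4.21 FPKM in SCI. SOSTDC1, CDH19 and GFRA3 have no entry. The list summed to 176 FPKM in No-SCI and 231 FPKM in SCI, and what Schwann cells gave to members they also express, such as PLLP, MAL, CNP and CD9, was not tested.

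The lower values were not particular to oligodendrocytes among the marker lists. For comparison, 12.1% of all entries were at least 2-fold lower and 7.96% at least 2-fold higher after SCI. Of 11 astrocyte genes with an entry 6 were at least 2-fold lower (median log2 ratio −1.01), and the defining markers GFAP, AQP4, S100B, SLC1A3 and ALDOC have no entry. The most abundant genes of that list, APOE, NDRG2 and GLUL, had log2 ratios of 0.18, −1.31 and −0.059. Of 13 neuronal genes 4 were at least 2-fold lower (median −0.44), and the 3 most abundant, MAP2, THY1 and UCHL1, had log2 ratios of −1.32, −1.13 and −0.44. Microglia and macrophage genes were divided, with 3 of 13 at least 2-fold lower and 2 at least 2-fold higher (median 0.30), and AIF1, FCER1G and TYROBP were the most abundant with 477, 251.2 and 182 FPKM in No-SCI. Of 9 endothelial genes 1 (SLCO1C1) was at least 2-fold lower, which is 11.1% and near the share of all entries. At least 2-fold higher were 2 (ERG and CDH5), and the median was 0.064. ERG, CLDN5 and ESAM had 20.8, 16.2 and 10.6 FPKM in No-SCI. No difference between lists was tested.

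**Figure D4:**
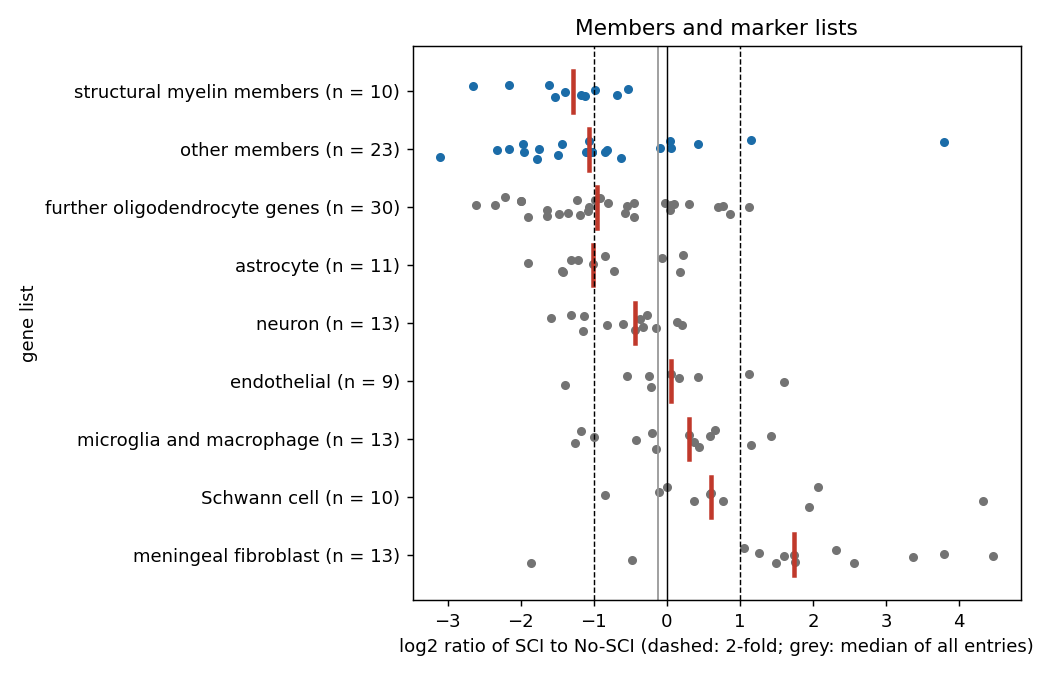
Log2 ratio of SCI to No-SCI for each gene of the members and of 7 marker lists, with the median of each list as a red bar, dashed lines at a 2-fold difference and a grey line at the median of all entries. The medians run from −1.28 for the structural myelin members to 1.73 for the meningeal fibroblast list.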

How the data were processed

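The authors depleted ribosomal RNA, prepared stranded libraries, reduced every library to the read number of the smallest, aligned to rn6 with the Ensembl annotation using STAR 2.5.4b, and obtained with Cuffdiff (1.3.0 in the submitters' processing notes) 1 upper quartile normalized FPKM value per group. These deposited FPKM values, 1 per entry for No-SCI and 1 for SCI, were the only measurements used. The fold change, log2 fold change, p-value, q-value and significance columns hold the authors' own comparison and were not used. The 2 value columns were matched to groups by the group names in the file, so no value column lacks a group.

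The table holds 12771 entries with 12758 symbols, and no value lies below 1. No symbol of any list used occurs more than once. Values of 20 of the 33 genes, MOBP and BCAS1 among them, carry more than the 6 digits of a single Cuffdiff estimate, as do 58.6% of all entries. Whether values of several entries were summed, or a constant of 1 was added, is not given in the sources used here, and levels of different genes and ratios of low values carry that limit. A difference of at least 2-fold was the call, and no test was run because no value per library was used. The methods state a read number per library, equal for all after the reduction, but whole reads could not be recovered from 2 FPKM values per gene, so the reads behind each value are unknown.

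The members and lists were chosen with earlier results of these data known. All members with an entry are named, together with the defining oligodendrocyte genes, the 3 most abundant genes of each other list and every further oligodendrocyte gene at least 2-fold apart, except a few that are not reported here. Other genes were named after their values were seen. Alternatives were a pseudocount of 1, subtracting 1, 4 scalings, a fold of 1.5, a mean of at least 10 FPKM, means for medians and other lists. The counting step was tested on simulated data. Python 3.11.15, numpy 2.4.6, pandas 2.3.3 and matplotlib 3.10.9 were used.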

Additional observations from a re-analysis of the deposited data

How the results depend on the processing

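No paired analysis was possible because the table gives 1 value per group, and for the same reason leaving out each replicate was not run. The median log2 ratio of the members was −1.10. It was −1.06 with a pseudocount of 1, −1.14 with 1 subtracted, −0.98 with the median of all entries centred at 0, −0.996 at the same upper quartile, −1.05 at the same total, −1.10 at the same total without the members, −1.08 over entries with a mean of at least 10 FPKM, −1.03 as a mean and −1.39 without members also known in meninges or vessels. The count of members at least 2-fold lower was 21 and ran from 15 with median centring (9.59% of all entries) to 21 under the alternatives at that fold, and was 26 at a fold of 1.5 (26.3% of all entries). The count at least 2-fold higher was 2 under each of them. The difference of the structural from the other members, −0.22, cannot change under the 4 scalings, which add 1 constant to every log2 ratio. It was −0.24 with a pseudocount of 1, −0.23 with 1 subtracted, −0.26 over entries with a mean of at least 10 FPKM, −0.40 with 6 structural genes, −0.092 with 17, −0.51 between means and −0.13 without members also known in meninges or vessels. Without MOBP the members held 5.28% of the summed FPKM in No-SCI and 3.42% in SCI. The sign of GSN turned under median centring and upper quartile scaling, and that of the other 32 members was kept under the 4 scalings, the alternatives that could turn a sign. The cause of these differences was not tested.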
